A study of Mus musculus with 2 samples.

Results

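Lysosomal enzyme and membrane genes were followed in microglia, the resident macrophages of the brain, by droplet single-cell RNA sequencing. The set comprised 35 of the 32285 genes in the matrix and was chosen by name: 9 lysosomal membrane proteins, 12 glycosidases and other enzymes of glycan breakdown, 6 genes of lipid handling, 3 genes of peptide, thioester and progranulin biology, 3 proton pump subunits and 2 transcription factors of lysosomal genes. Cathepsins were left out. All mice carried 1 copy of Cx3cr1CreERT2(Litt), an allele in which the fractalkine receptor gene Cx3cr1, active in microglia, drives a Cre recombinase that tamoxifen activates. The mice were 12 weeks old and were treated for 4 weeks with tamoxifen (TAM) or were in the oil (vehicle) group. Cre was thus present in the genome of both groups, and mice without Cre were not analysed here. CD11b+ CD45+ Ly6G- CD206- cells from perfused brains were tagged with 10 antibody hashtags, Oil1 to Oil5 and TAM1 to TAM5, and pooled into 1 gene expression library. Whether a hashtag stands for 1 mouse is not stated in the labels. The p-values therefore reflect only how hashtags of 1 treatment scatter, and part of that scatter can be technical.

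The 10 hashtags held 583 to 900 microglia-like cells and 2952316 to 4793833 unique molecular identifiers (UMIs, distinct RNA molecules counted) each. All 14 microglial markers were detected in these cells. Of the CNS-associated macrophage markers 6 of 8 were detected, at a summed 246 to 289.7 CPM (UMIs per 1000000) in the oil and 263 to 299.6 CPM in the TAM hashtags, with Cd163 and Ms4a7 at 0. For monocytes 4 of 7 were detected (4.82 to 12.1 and 3.73 to 15.6 CPM; Ly6c2 and Chil3 among those at 0), and for neutrophils 3 of 7 (362 to 439 and 364 to 436 CPM; S100a8, S100a9, Retnlg and Ly6g at 0). For T and NK cells 2 of 7 were detected (0 to 0.308 and 0.256 to 0.472 CPM; Cd3e, Trbc2, Nkg7, Gzma and Cd8a at 0). All 4 summed ranges overlapped between the treatments, and their part in the results was not tested. Oil1, Oil2, TAM1 and TAM2 carried RNA of Y-linked genes (332 to 355 CPM) and the other hashtags did not exceed 3.94 CPM. The share of cells in a cluster led by the immediate early genes Fos, Fosb and Egr1 was 55.2%, 49.1%, 29.8%, 16.0% and 6.0% for the oil hashtags in the order of their numbers. It was 4.36%, 1.72%, 0.667%, 0.666% and 0.413% for the TAM hashtags. Every TAM hashtag was below every oil hashtag in this share, so treatment and the immediate early state cannot be fully told apart.

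Lysosomes are acidic organelles in which hydrolases take apart material that a cell engulfs or recycles. The vacuolar proton pump acidifies the lumen, membrane proteins protect the limiting membrane and carry cholesterol, cystine or ions across it, and soluble hydrolases cut glycans, lipids and peptides. Microglia rely on this system to digest myelin, dying cells and synaptic material, and loss of single members causes lysosomal storage diseases such as Tay-Sachs (Hexa), Fabry (Gla), Pompe (Gaa) and Niemann-Pick type C (Npc1, Npc2). The transcription factors Tfeb and Tfe3 move to the nucleus when lysosomes are stressed or nutrients are scarce, and they bind an E-box, CACGTG, found near the start of many lysosomal genes.

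Because Tfeb and Tfe3 are themselves members, the promoter windows of the set were searched for the letters CACGTG and for the longer TCACGTGA, which contains it. Both read the same on either strand. Windows of 300 bases, from 250 before to 50 after a RefSeq gene start (build GRCm38.p6), were found for 33 of the 35 members. CACGTG was present in 10 of the 33 (30.3%), against 2187 of 27025 gene symbols (8.09%), and TCACGTGA in 5 (15.2%), against 304 (1.12%). Of 111 other lysosomal genes, from a wider list, 85 had a window. CACGTG was present in 20 of these 85 genes (23.5%) and TCACGTGA in 10 (11.8%). The 10 members were Atp6v0d1, Atp6v1a, Cln3, Gaa, Gla, Glb1, Lamp1, Mcoln1, Naglu and Sgsh. The longer form was found in Atp6v0d1, Atp6v1a, Cln3, Gla and Mcoln1. Stretches are shown for the 4 members in which every match lies before both the RefSeq and the GENCODE start of the gene, 5′ to 3′ on the gene's strand, with CACGTG in capitals and up to 20 flanking bases. They lie at chr8:13159080-13159160 (plus strand, Lamp1), chr9:114401010-114401055 (plus strand, Glb1), chr11:119267803-119267848 (plus strand, Gaa) and chrX:134601174-134601252 (minus strand, Gla).
Lamp1: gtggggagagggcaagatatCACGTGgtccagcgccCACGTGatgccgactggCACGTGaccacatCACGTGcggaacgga
Glb1: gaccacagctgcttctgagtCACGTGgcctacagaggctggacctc
Gaa: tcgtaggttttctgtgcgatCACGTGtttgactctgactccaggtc
Gla: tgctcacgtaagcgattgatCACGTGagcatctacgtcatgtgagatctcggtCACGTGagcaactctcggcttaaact
Lamp1 held 4 copies, beginning 61, 45, 28 and 15 bases before the start, and Gla 2 copies, both within the longer form. A match describes letters only and does not show that a factor binds there.

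The first comparison asked whether the lysosomal set as a whole took a different share of microglial RNA after TAM. It did not differ beyond the spread between hashtags. Abundant members weigh most in this sum: Laptm5 held 67340 UMIs over all hashtags and Gla 166. The 35 members together made up 0.855%, 0.852%, 0.868%, 0.869% and 0.892% of the gene UMIs in Oil1 to Oil5. In TAM1 to TAM5 the share was 0.873%, 0.871%, 0.863%, 0.856% and 0.874%. Means were 0.867% ± 0.0155 and 0.867% ± 0.00754 (SD, n = 5 each), and the TAM values lay inside the range of the oil values. By role, the membrane proteins made up 0.368% ± 0.00546 in oil and 0.360% ± 0.00417 in TAM hashtags, and the lipid handling genes 0.202% ± 0.00606 and 0.208% ± 0.00605. These role sums overlapped between treatments too.

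**Figure D1:**
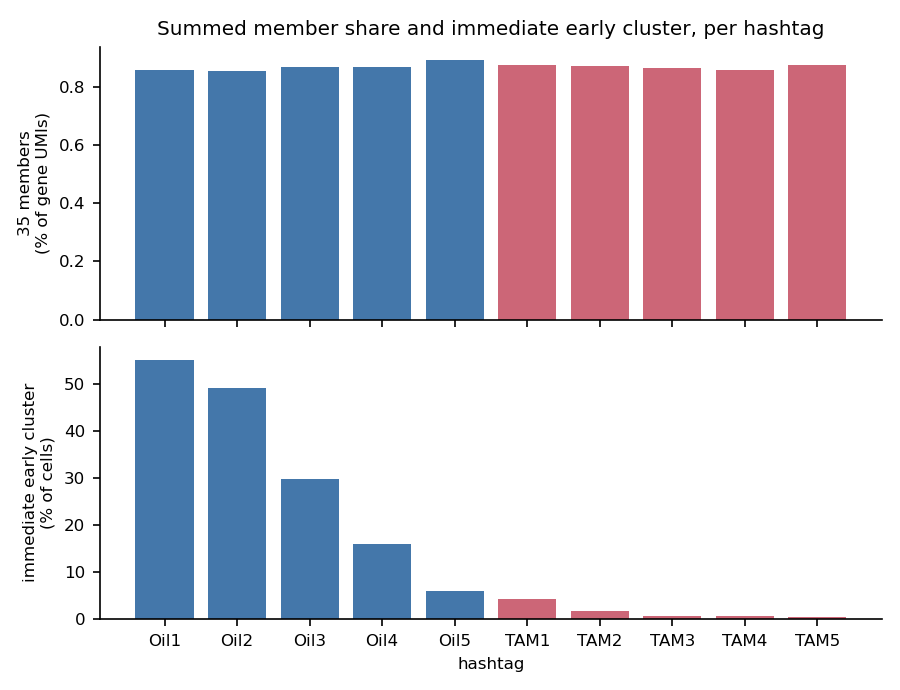
Summed share of the 35 members in gene UMIs (top, %) and share of cells in the immediate early cluster (bottom, %) for each hashtag, oil in blue and TAM in red. The member share stays between 0.852% and 0.892% while the immediate early share runs from 55.2% to 0.413%.

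Gene by gene, no member passed the test between TAM and oil. All 35 were measured well enough to be tested, and 0 passed at an adjusted p of 0.05 (edgeR quasi-likelihood test, Benjamini-Hochberg over 11170 genes), against 4.46% of all tested genes. DESeq2 also called 0, against 4.37% of all genes. At an unadjusted p under 0.05 there were 7 of 35 members (20%) by either tool, 2 higher and 5 lower in edgeR. The share of all genes was 19.4% in edgeR, near that of the members, and 14.6% in DESeq2. Fitted log2 fold changes (TAM over oil) ran from −0.45 for Gla to 0.29 for Mcoln1 with a median of −0.01, beside a median of −0.00016 over all genes. The sign was below 0 for 19 members and above 0 for 16. Below 0 were 25 both with the immediate early level as a term in the fit and without the cells of the immediate early cluster, and 24 with the hashtag number as a term. The hashtag number in these fits was read from the feature identifier, not from the hashtag's name. With scaling by library size alone, which raises the median of all genes to 0.04, Cln3, Ctns, Idua and Lipa turned from just below to just above 0.

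The 95% intervals bound what could have been missed. For 29 of the 35 members the whole interval lay within ±0.3 on the log2 scale. The widest belonged to thinly counted genes: Gla, the alpha-galactosidase of Fabry disease, with 166 UMIs in all hashtags (−0.91 to 0.01), Sgsh, the sulfamidase of heparan sulfate breakdown, with 247 (−0.16 to 0.62), and Idua, the iduronidase gene, with 678 (−0.32 to 0.29). The narrowest was that of Laptm5, a lysosomal membrane protein of hematopoietic cells, with 67340 UMIs (−0.11 to 0.02).

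**Figure D2:**
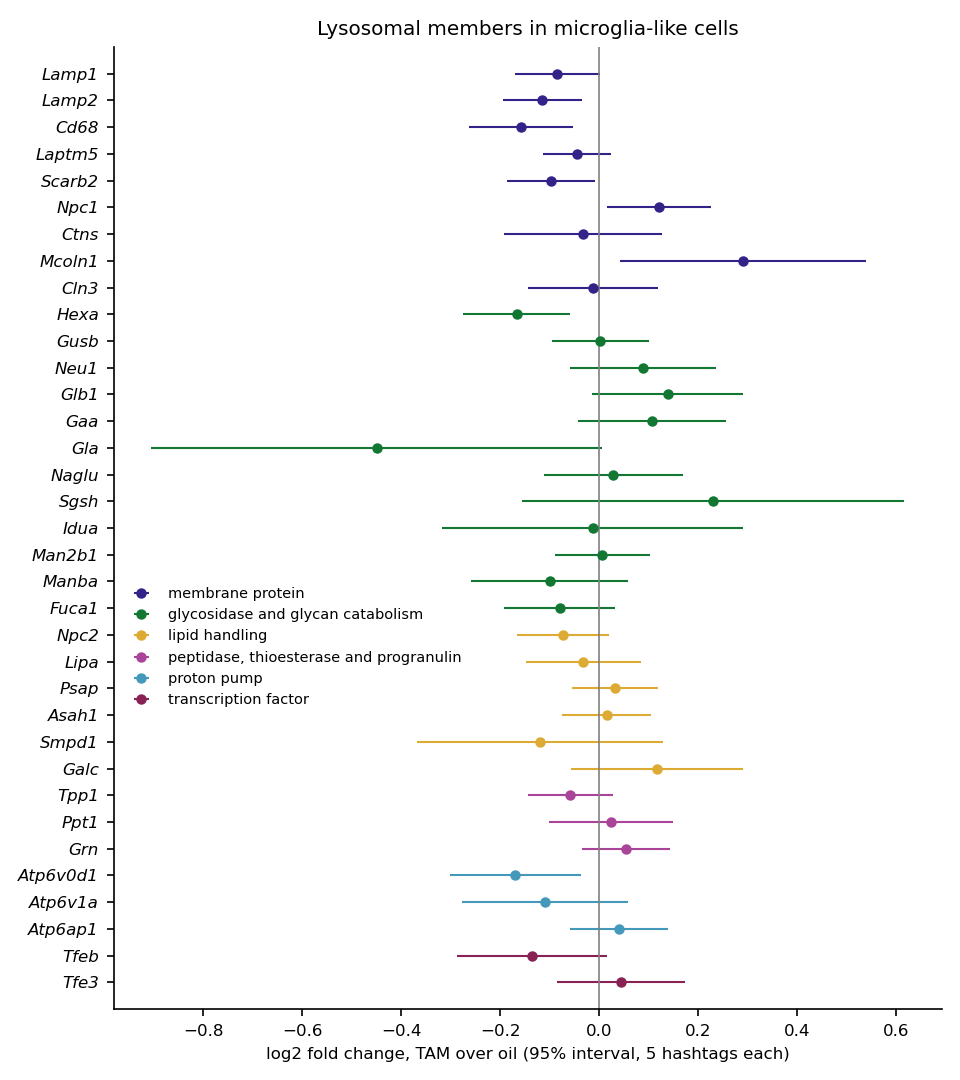
Log2 fold change of each member, TAM over oil, with its 95% interval (edgeR, 5 hashtags each), coloured by role. Points cluster around 0, and intervals are widest for Gla and Sgsh, which have the fewest UMIs.

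Among the membrane proteins, 7 of 9 had a log2 fold below 0 (5 of 9 with scaling by library size alone), and none passed. Lamp2 (chromosome X, 38401357 to 38456454, minus strand of GRCm38), a major glycoprotein of the lysosomal membrane that also serves chaperone-mediated autophagy, was at 433, 449, 455, 462 and 430.1 CPM in Oil1 to Oil5. In TAM1 to TAM5 it was at 396, 407, 423, 421 and 413 CPM. All 5 TAM hashtags were thus below all 5 oil hashtags, yet the log2 fold of −0.11 ± 0.04 (SE) missed the threshold (adjusted p = 0.0918, edgeR). Lamp2 and Hexa were the members whose treatments did not overlap (2 of 35, 5.71%), against 5.26% of all tested genes.

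Cd68 (chromosome 11, 69664213 to 69666153, minus strand), the lysosomal glycoprotein used as a marker of phagocytic macrophages, was at 437, 415, 413, 399 and 408 CPM in the oil hashtags and at 416, 387, 349, 356 and 351 CPM in the TAM hashtags. TAM1 lay among the oil values and the other TAM hashtags lay below them. The log2 fold was −0.16 ± 0.05 (adjusted p = 0.0835, edgeR), and without TAM1 it was −0.20 with an adjusted p of 0.0126 (edgeR), in a fit that called 5.72% of all genes. Lamp1 (chromosome 8, 13159161 to 13175338, plus strand), the companion glycoprotein of Lamp2, was at 631, 652, 635, 648 and 651 CPM in the oil hashtags and 628, 637, 591, 558 and 619.9 CPM with TAM. The TAM values spread more widely, and TAM2 lay among the oil values (log2 fold −0.08 ± 0.04, adjusted p = 0.262, edgeR).

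Laptm5 was at 1687, 1779.9, 1761, 1788 and 1814 CPM in the oil hashtags and 1709, 1745, 1719, 1659.9 and 1726 CPM with TAM, TAM4 being the lowest and the other TAM values inside the oil range (log2 fold −0.04 ± 0.03, adjusted p = 0.494, edgeR). Scarb2, the receptor that carries glucocerebrosidase to lysosomes, was at 204, 219, 213, 220.3 and 225 CPM in the oil hashtags and 204, 212, 203, 195 and 198 CPM with TAM. Its log2 fold of −0.10 ± 0.04 did not pass (adjusted p = 0.213, edgeR). Both fitted folds lay below 0, like those of Lamp2 and Cd68, and neither passed.

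The 2 membrane proteins with a fold above 0 were both channels or carriers. Npc1, which exports cholesterol from the lysosome, was at 117, 121, 126, 123 and 125 CPM in the oil hashtags and 130.01, 122, 135, 136 and 142 CPM with TAM, with TAM2 inside the oil range (log2 fold 0.12 ± 0.05, adjusted p = 0.186, edgeR). Mcoln1, the calcium channel TRPML1, was at 16.6, 20.7, 18.2, 19.6 and 15.7 CPM in the oil hashtags and 21.4, 22.4, 21.3, 18.8 and 27.3 CPM with TAM. TAM4 overlapped the oil values, and TAM5 was the highest (log2 fold 0.29 ± 0.12, adjusted p = 0.178, edgeR). Ctns, the cystine exporter, and Cln3, the protein of juvenile Batten disease, were at −0.03 and −0.01.

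Of the 12 glycosidases and enzymes of glycan breakdown, 7 had a fold above 0 and 5 below (8 and 4 with scaling by library size alone), with a median of 0.0043. Hexa (chromosome 9, 59539540 to 59565109, plus strand), the alpha subunit of beta-hexosaminidase, had the smallest p of all members. It was at 501, 508, 524, 529 and 572 CPM in Oil1 to Oil5 and at 486, 492, 488, 415 and 467 CPM in TAM1 to TAM5. No TAM value reached the lowest oil value, and Oil1 and TAM2 lay close together. The log2 fold was −0.17 ± 0.05 (527 ± 28.0 to 469.6 ± 32.0 CPM), with an adjusted p of 0.0733 (edgeR).

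Glb1, the beta-galactosidase of GM1 ganglioside breakdown, went the other way without passing. It was at 62.6, 58.7, 58.2, 55.7 and 59.4 CPM in the oil hashtags and 69.2, 69.2, 55.5, 60.9 and 70.6 CPM with TAM (log2 fold 0.14 ± 0.07, adjusted p = 0.305, edgeR). TAM3 was the lowest of all 10 and TAM5 the highest. Gla (chromosome X, 134588149 to 134601125, minus strand) was at 6.60, 4.39, 3.82, 6.02 and 4.25 CPM in the oil hashtags and 3.30, 4.07, 3.92, 3.51 and 3.45 CPM with TAM. Oil1 and Oil4 stood above the rest, each value resting on 12 to 23 UMIs (log2 fold −0.45 ± 0.22, adjusted p = 0.265, edgeR). Gusb, the beta-glucuronidase, and Man2b1, an alpha-mannosidase, were at 0.0021 and 0.0064, with intervals of −0.10 to 0.10 and −0.09 to 0.10. Neu1, Gaa, Naglu, Sgsh, Manba, Fuca1 and Idua lay between −0.10 and 0.23 and did not pass.

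Of the lipid handling genes, 3 had a fold above 0 and 3 below (4 and 2 with scaling by library size alone). Psap, the precursor of the saposins that present lipids to lysosomal enzymes, was at 1129 ± 35.6 CPM in the oil hashtags and 1154 ± 62.1 CPM with TAM (log2 fold 0.03, interval −0.06 to 0.12). Npc2, the soluble cholesterol carrier that works with Npc1, was at −0.07, Lipa, the acid lipase, at −0.03 and Asah1, the acid ceramidase, at 0.01. Smpd1, the acid sphingomyelinase, and Galc, the galactosylceramidase of myelin breakdown, had folds of −0.12 and 0.12. Of these 6 genes, 0 had an unadjusted p under 0.05 (edgeR). Tpp1, a lysosomal peptidase, Ppt1, a thioesterase, and Grn, the progranulin gene, were at −0.06, 0.02 and 0.05, and the treatments overlapped for all 3.

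Of the proton pump genes, Atp6v0d1, a subunit of the membrane sector, was at 96.4, 94.8, 97.7, 81.6 and 88.7 CPM in the oil hashtags and 80.5, 81.1, 89.6, 76.7 and 79.8 CPM with TAM. Oil4 and TAM3 crossed, and the log2 fold of −0.17 ± 0.06 did not pass (adjusted p = 0.143, edgeR). Atp6v1a, the catalytic subunit, was at −0.11 ± 0.08, and Atp6ap1, an accessory subunit, at 0.04 ± 0.05. The transcription factor Tfeb (chromosome 17, 47737030 to 47792419, plus strand) was at 57.4, 64.3, 61.1, 57.3 and 61.9 CPM in the oil hashtags and 53.0, 59.0, 55.5, 60.9 and 46.7 CPM with TAM. TAM2 and TAM4 fell inside the oil range (log2 fold −0.14 ± 0.07, adjusted p = 0.316, edgeR). Tfe3 was at 109, 97.6, 108, 111 and 127 CPM in the oil hashtags and 111, 115, 116, 117 and 112 CPM with TAM, all of the latter within the oil range (log2 fold 0.04 ± 0.06, adjusted p = 0.756, edgeR). The 10 members with CACGTG in the window had a median log2 fold of 0.0080 and the 23 without it −0.03.

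**Figure D3:**
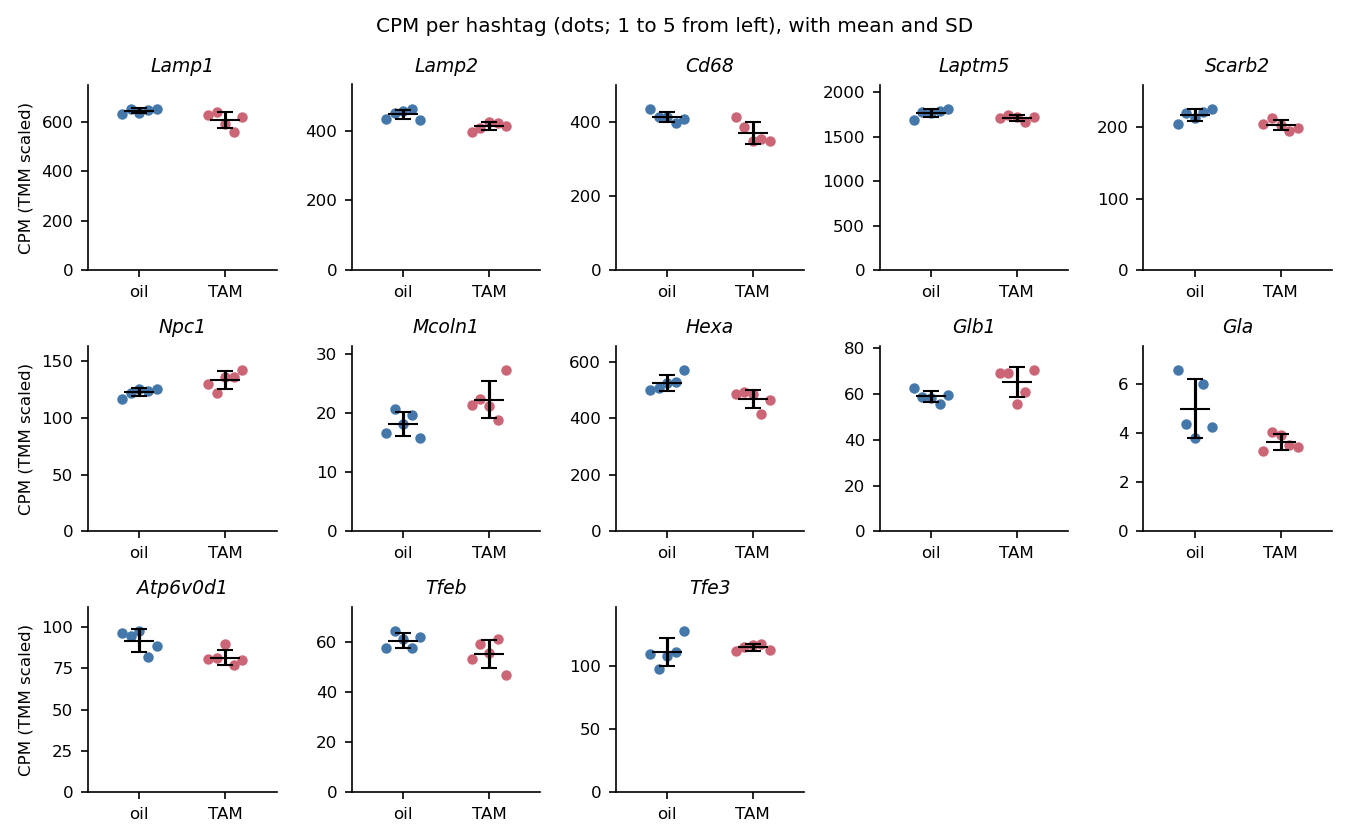
CPM of the 13 members described by hashtag (dots, numbers 1 to 5 from left to right), with mean and SD, oil in blue and TAM in red. Only Lamp2 and Hexa show treatments that do not overlap among these panels.

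Spread between hashtags of 1 treatment was close to counting error for most members, but not for most of the abundant ones. The coefficient of variation within treatments was 1.23 times that of Poisson counting at the median of the members. It was 2.94 times for Psap, 2.65 times for Hexa and 2.27 times for Cd68, whose spread thus exceeded counting error, and 0.674 times for Gaa. Other abundant members were also above it, with Grn at 2.18, Man2b1 at 2.09 and Laptm5 at 1.92 times, though Lamp2 was at 1.19 times.

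A wider list of 111 other lysosomal genes was examined beside the members, of which 103 were tested. Of these, 2 fell (beside 4.46% of all tested genes called in either direction), 0 rose and 101 did not pass, with a median log2 fold of −0.02. Slc15a3, a proton-coupled histidine and peptide transporter of lysosomes, was at 169.7 ± 29.7 CPM with oil and 113 ± 15.1 CPM with TAM, a log2 fold of −0.58 ± 0.11 that passed (adjusted p = 0.0066, edgeR). It did not pass once the mean immediate early level of each hashtag entered the fit, where it was at −0.05 (adjusted p = 0.931, edgeR). With the hashtag number as a covariate it was at 0.08 (adjusted p = 0.921, edgeR). It passed without the cells of the immediate early cluster (−0.42, adjusted p = 0.0168, edgeR), where 3.84% of all genes did. Of the clusters described below, it passed within cluster 0 (−0.50, adjusted p = 0.0088, edgeR; 0.896% of all genes) and not within cluster 2 (−0.31, adjusted p = 0.259, edgeR).

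The folds of Hexa and Cd68 lay near the threshold and crossed it in some fits. With sex, read from the Y-linked RNA, as a covariate, both passed (Hexa −0.17, adjusted p = 0.0352, and Cd68 −0.16, adjusted p = 0.0129, edgeR), 2 of 35 members against 7.82% of all genes. In the 6 hashtags without Y-linked RNA alone, a choice made after seeing the data, they were at −0.24 and −0.21 (adjusted p = 0.0135 and 0.0077, edgeR), 2 of 35 members in a fit that called 5.75% of all genes. In the 4 hashtags with it they were at −0.05 and −0.09 and did not pass, in a fit that called 1.03%. The difference between these 2 sets of hashtags was 0.20 ± 0.09 for Hexa (adjusted p = 0.85, edgeR) and 0.13 ± 0.08 for Cd68 (adjusted p = 0.896), and 0 of 35 members passed this test, against 0.0179% of all genes. At an unadjusted p under 0.05 there were 2 members, against 5.71% of all genes.

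The fitted folds of the 2 genes moved apart once the immediate early level entered the fit, and this difference was not tested. The level ran from 5.20 to 7.09 (log2) in the oil and from 4.04 to 5.12 in the TAM hashtags, so it cannot be fully told apart from treatment. With that level as a covariate, Hexa was at −0.20 ± 0.08 and Cd68 at −0.0028 ± 0.07. With the hashtag number, read from the feature identifier, as a covariate they were at −0.19 ± 0.10 and 0.06 ± 0.08. The SE of Hexa was thus 0.10, against 0.05 in the main fit, and how far this number can be told apart from treatment was not tested. No member passed in either fit, which called 0.591% and 0.34% of all genes, and 2 and 1 members had an unadjusted p under 0.05, against 9.87% and 8.99% of all genes. Without the cells of the immediate early cluster, Hexa was at −0.21 ± 0.05 and passed (adjusted p = 0.0252, edgeR), the only one of 35, against 3.84% of all genes, while Cd68 was at −0.18 ± 0.06 (adjusted p = 0.0849).

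Member levels also differed between the states of the cells. Clustering without the members gave 8 clusters, 6 of them microglia-like. When members were allowed, 0 were among the 2000 variable genes, so leaving them out took none from the clustering. The largest, cluster 2, held 3037 cells at a median of 5467 UMIs, and cluster 0 held 2851 cells at 4346 UMIs. The summed members were at 8001 ± 219.6 CPM in cluster 2 and 9539 ± 143 CPM in cluster 0 (SD, 10 hashtags), with every hashtag higher in cluster 0. Clusters were made from these same cells, so differences between them are given with no test. Of the 31 members with at least 20 CPM in cluster 2, 12 were higher in cluster 0 in all 10 hashtags and 0 were lower in all, with a median log2 ratio of 0.17. Over the 7084 genes with that level, 10.9% were higher in all hashtags and the median was −0.07.

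In cluster 0 Hexa was at 572 ± 31.1 CPM and at 437 ± 34.9 CPM in cluster 2 (log2 ratio 0.39 ± 0.10), Cd68 at 428 ± 31.1 and 326 ± 18.6 CPM (0.39 ± 0.12) and Npc2 at 489 ± 23.9 and 375 ± 27.9 CPM (0.39 ± 0.10). Naglu, an enzyme of heparan sulfate breakdown, had the highest mean ratio, 0.42 ± 0.41, but only in 8 of 10 hashtags. Tfeb was lowest at −0.19 ± 0.29, followed by Manba, the beta-mannosidase, at −0.16, Glb1 at −0.06 and Scarb2 at −0.05. Cells of cluster 0 were shallower and had a median of 0.973% mitochondrial UMIs, against 0.691% in cluster 2, and the part of this in the ratios was not tested.

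The highest lysosomal levels were found in cluster 3, whose leading genes were Spp1, Lgals3 and Lpl, genes of activated microglia that are induced around plaques and myelin debris. It held 205 cells, 11 to 35 per hashtag, at a median of 5642 UMIs. In the 3 hashtags with at least 20 cells, TAM1 to TAM3, the members summed to 10968 ± 469 CPM. In all 10 (at least 10 cells, a limit chosen after seeing the data) they summed to 11613 ± 879 CPM. Only the latter includes oil hashtags, so the sums differ in treatment as well as in the cell limit. The lowest hashtag, at 10432 CPM, was above the highest of cluster 2, at 8293 CPM. Of the 31 members, 11 were higher than in cluster 2 in all 10 hashtags, 0 were lower in all, and the median log2 ratio was 0.45. Over the same 7084 genes 6.62% were higher in every hashtag and the median was −0.27.

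**Figure D4:**
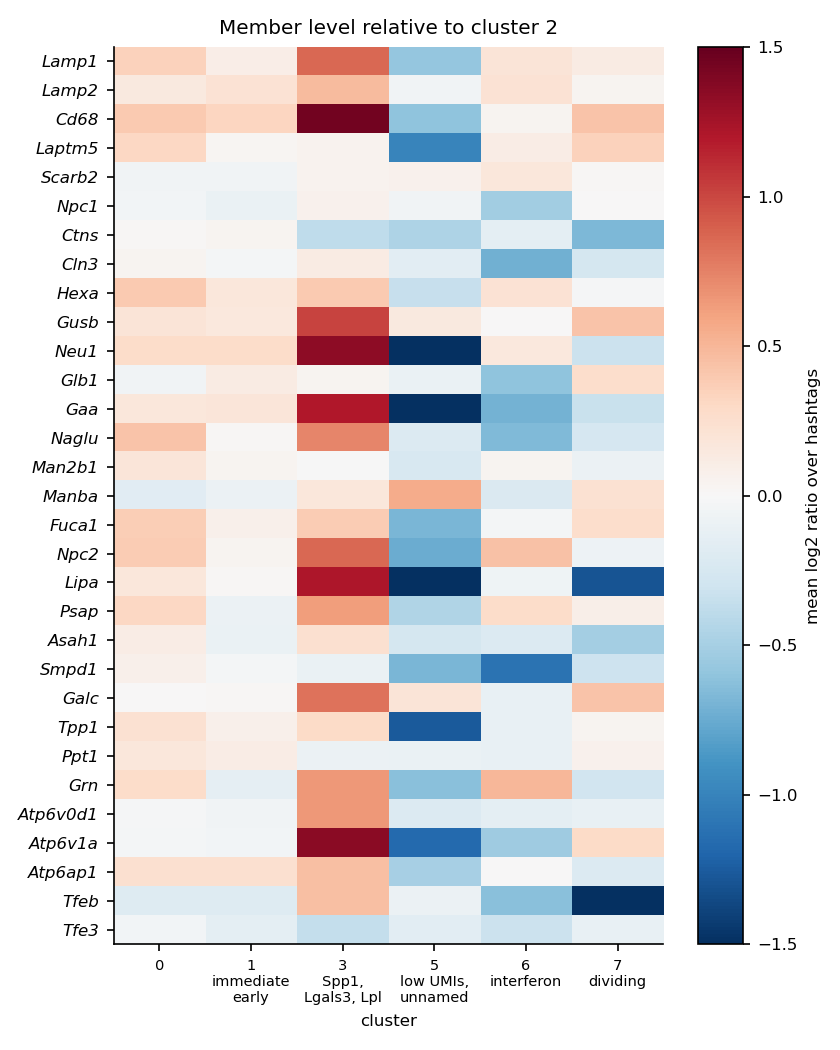
Mean log2 ratio of each member to cluster 2, over hashtags with at least 10 cells, for the 31 members with at least 20 CPM in cluster 2 (1 CPM added, colours end at ±1.5). Cluster 3 has the deepest red, with Cd68 at 1.44, while cluster 5, with few UMIs, is mostly blue.

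At the limit of 10 cells Cd68 had the highest mean ratio of the 31 members. In cluster 2 it was at 294 to 348 CPM over the 10 hashtags, and in cluster 3 at 632 to 1173 CPM, with no overlap (901 ± 174 against 326 ± 18.6 CPM, log2 ratio 1.44 ± 0.30). Atp6v1a followed at 184 ± 48.1 against 69.3 ± 6.87 CPM (1.36 ± 0.40), Neu1, the sialidase, at 94.9 ± 28.3 against 35.8 ± 6.73 CPM (1.34 ± 0.66), Lipa at 199 ± 39.6 against 84.3 ± 12.5 CPM (1.22 ± 0.28) and Gusb at 316 ± 59.9 against 154 ± 9.92 CPM (1.02 ± 0.31). In the 3 hashtags with at least 20 cells, all of them TAM, the order differed, with Neu1 at 1.56, Atp6v1a at 1.47 and Lipa at 1.39 above Cd68 at 1.23. These genes belong to 4 roles, from the membrane and the proton pump to the breakdown of glycans and lipids.

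Lamp1 and Npc2 were at 0.86 each, Grn at 0.65, Psap at 0.63, Lamp2 at 0.47 and Atp6ap1 at 0.45, all higher in 10 of 10 hashtags. Gaa, the acid glucosidase, had a mean ratio of 1.20 ± 0.93 and was higher in 9. Not all members shared this. Laptm5 was at 0.06 ± 0.14, Scarb2 at 0.05, Man2b1 at −0.0036, and Tfe3, at −0.36 ± 0.33, was lower in 9 of 10 hashtags. Gla, which lay under 20 CPM in cluster 2, had 38 UMIs in cluster 3, or 31.5 CPM (exact Poisson 95% interval 22.3 to 43.3, counting error only), against 2.87 CPM in cluster 2. Among the 31 members, the 7 with CACGTG in the promoter window had a median log2 ratio of 0.73 in cluster 3 and the 22 with a window that lacks it 0.42. The ratios ran from 0.04 to 1.36 with it and from −0.38 to 1.44 without it, and so overlapped.

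**Figure D5:**
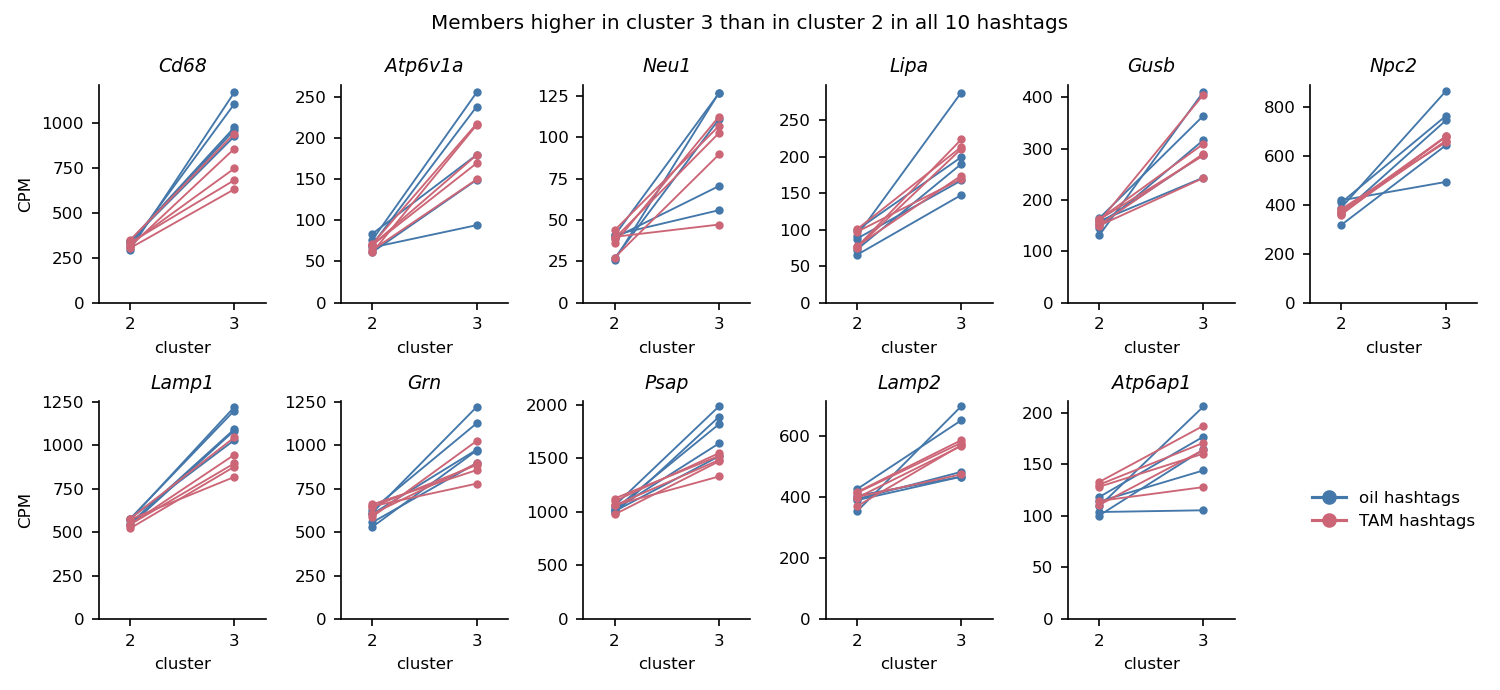
CPM in clusters 2 and 3 for each hashtag (lines; oil blue, TAM red) of the 11 members higher in cluster 3 in all 10 hashtags. Cd68 goes from 294 to 348 CPM in cluster 2 to 632 to 1173 CPM in cluster 3.

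The remaining clusters departed less or rested on few cells. In the immediate early cluster (6 hashtags with at least 20 cells) the members summed to 8168 ± 131 CPM, Cd68 and Lamp2 were higher than in cluster 2 in all 6 (0.30 and 0.28), and Npc1 had the lowest ratio (−0.26 ± 0.28). In the dividing cluster, led by Mki67 and Top2a (3 TAM hashtags), Tfeb was at 27.3 ± 19.9 against 59.9 ± 9.47 CPM, Lipa at 38.1 ± 14.1 against 84.3 ± 12.5 CPM and Asah1 at 236 ± 40.5 against 336 ± 13.05 CPM, each lower in 3 of 3. The cluster 2 means in this paragraph cover all 10 hashtags, while ratios and counts of hashtags compare clusters within the same hashtag. Tfeb and Lipa had only 33 and 44 UMIs in the dividing cluster, and Tfeb was at 4.35 CPM in TAM3. Gusb and Laptm5 were higher there in 3 of 3 (0.43 and 0.35). In the interferon-responsive cluster (2 hashtags, TAM3 and TAM5) Grn had the highest ratio, at 887 ± 173 against 608 ± 41.4 CPM, and Atp6v1a was lower in both, at 43.3 ± 9.31 CPM.

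Clusters 4 and 5 were left unnamed. Cluster 5, with a median of 1507 UMIs per cell, had 964 CPM of Laptm5 (exact Poisson 95% interval 882 to 1051) against 1594 CPM in cluster 2, and 13.1 CPM of Gaa (5.28 to 27.0) against 33.8 CPM. Intervals in this paragraph pool the hashtags and cover counting error only, not the spread between hashtags. Laptm5 in cluster 5 ran from 370 CPM in Oil2 to 1614 CPM in TAM4. TAM4 was above its own cluster 2 value (1557 CPM), and every other hashtag was below its own. Gaa was below in every hashtag. Cluster 4, led by MHC class II genes, held 52 cells. There Grn was at 190.5 CPM (136 to 259) against 624 CPM and Tpp1 at 47.6 CPM (22.8 to 87.6) against 159 CPM, while Psap was at 1381 CPM (1227 to 1549.5) against 1048 CPM.

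The makeup of the hashtags in these states differed between treatments. Cluster 2 held 11.9% to 38.9% of the microglia-like cells of the oil hashtags and 46.7% to 60.6% of those of the TAM hashtags. Cluster 3 held 1.46% to 2.25% and 2.40% to 4.97%. Neither range overlapped, and no test was made because member levels and clusters come from the same cells. Sums over all microglia-like cells, as in the gene by gene comparison, mix these states, so a change in makeup and a change within cells cannot be told apart in them.

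TAM and oil were therefore also compared within clusters. In cluster 2, 0 of 33 members passed (4 at an unadjusted p under 0.05, against 9.01% of all genes), in a fit that called 0.183% of 9850 genes. Hexa was at −0.08 ± 0.07 there, Cd68 at −0.02 ± 0.06 and Lamp2 at −0.0006 ± 0.06. The smallest p belonged to Mcoln1 (0.64 ± 0.24, adjusted p = 0.354, edgeR), followed by Naglu (0.32 ± 0.12), Manba (−0.27 ± 0.11) and Gaa (0.33 ± 0.14). Cluster 2 held 79 to 311 cells per oil hashtag and 272 to 500 per TAM hashtag, and Mcoln1 was at 0 CPM there in Oil1. In cluster 0, 0 of 34 members passed (2 at an unadjusted p under 0.05, against 10.4% of all genes), in a fit that called 0.896%. Atp6v0d1 was at −0.27 ± 0.10 (adjusted p = 0.266, edgeR), Hexa at −0.13 ± 0.05, Cd68 at −0.12 ± 0.06 and Lamp2 at −0.09 ± 0.06.

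In cluster 3, a fit added after seeing the data, 0 of 21 members passed and 0.185% of 2164 genes did. At an unadjusted p under 0.05 there were 5 of 21 (23.8%), all with folds below 0, against 9.1% of all genes. Of the 21 members 17 had a fold below 0, with a median of −0.10 beside −0.0097 over all genes in that fit. The 35 members summed to 12437, 12126, 12363, 13187 and 11469 CPM in Oil1 to Oil5 and 11299.8, 10432, 11173, 10775 and 10868 CPM in TAM1 to TAM5, with every TAM hashtag below every oil hashtag, given with no test. Cd68 was at 1108, 928, 963, 1173 and 977 CPM in Oil1 to Oil5 and 943, 748, 632, 859 and 683 CPM in TAM1 to TAM5, where TAM1 crossed Oil2 (log2 fold −0.43 ± 0.14, adjusted p = 0.318, edgeR). Lamp1 was at 1031, 1086, 1221, 1094 and 1201 CPM in the oil hashtags and 897, 819, 946, 877 and 1046 CPM with TAM, where TAM5 crossed Oil1 (−0.32 ± 0.12, adjusted p = 0.419). Fuca1, the alpha-fucosidase, was at −0.71 ± 0.21, Hexa at −0.37 ± 0.17 and Psap at −0.28 ± 0.11. The cluster contributed 11 to 18 cells per oil hashtag and 18 to 35 per TAM hashtag.

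Gene spans of Lamp1, Scarb2, Npc1, Cln3, Hexa, Glb1, Sgsh, Idua, Manba, Galc, Ppt1 and Grn overlap another annotated gene in GENCODE vM21. Of these, Cln3, Glb1 and Manba overlap a gene on the same strand, and the rest overlap genes on the other strand only. How reads shared by overlapping genes were counted is not given in the sources used here, so their values carry that uncertainty.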

How the data were processed

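The authors deposited raw UMI counts for every gene and barcode. Per the file headers they come from Cell Ranger 7.0.0, and the submitters' processing notes name mm10 as the build; gene coordinates are from GENCODE vM21 (GRCm38). Of 9975 barcodes, HTODemux (Seurat 5.3.0, quantile 0.99) called 8055 singlets, 1737 with several hashtags and 183 with none. Cells needed at least 500 genes, 1000 UMIs and at most 10% mitochondrial UMIs; 7903 singlets remained. Doublets within 1 hashtag were not removed. Cells were clustered with scanpy 1.11.5 (2000 variable genes without members and sex-linked genes, 30 components, 15 neighbours, Leiden 0.5); 7524 lay in microglia-like clusters, named by fixed markers.

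Counts were summed per hashtag and tested with edgeR 4.0.16 (quasi-likelihood F test, TMM, filterByExpr, Benjamini-Hochberg 0.05); DESeq2 1.42.0 was an alternative. The procedure was tested on simulated data. CPM by hashtag are TMM scaled, those by cluster are per total UMIs; ratios add 1 CPM per hashtag. A standard error is the absolute log2 fold over the square root of F. Intervals cover the model or counting error only. The total was 51821041 gene UMIs.

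Members and lists were chosen with earlier results of these data known. Values by hashtag are given for members that passed, the 10 with the smallest p, and Lamp1, Cd68, Laptm5, Tfeb and Tfe3; for other lysosomal genes, those that passed, except 1 that is not reported here; per cluster, up to 4 members with the highest and lowest ratios, and others described after their values were seen.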

Additional observations from a re-analysis of the deposited data

Results flagged for a closer look

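Atp6v1a, the catalytic subunit of the proton pump, was at 65.0 CPM in TAM5, apart from the other 4 TAM hashtags, which lay between 70.9 and 73.0 CPM. The gap to the nearest hashtag was 0.739 of the range of the TAM group, above the 95% limit of 0.71 for 5 values. This was the only such case among 72 groups of 5 examined, and chance alone gives about 1 in 20. The value lies inside the oil range of 63.9 to 88.2 CPM.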

How the results depend on the processing

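The count of 0 members became 1 without a filter on low counts (Hexa, against 4.13% of all genes) and 1 without the immediate early cluster (Hexa, 3.84%). It became 2 with sex as a covariate (7.82%) and 2 in hashtags without Y-linked RNA alone (5.75%), Hexa and Cd68 both times. Leaving out single hashtags gave 0 to 1, in fits that called 2.26% to 5.72% of all genes. Whether the replicate numbers pair the hashtags was not settled. Deviations of same-numbered oil and TAM hashtags correlated at 0.33, 0.17, 0.06, 0.13 and 0.12, and those of differently numbered ones at −0.30 to 0.22. With the replicate block 2 members (Hexa and Cd68) and 874 genes (7.82% of all genes) passed. Over all genes, 498 calls (4.46% of 11170 genes) became 830 without the filter, a lower share (4.13% of 20086 genes). They became 873 with sex, 66 with the immediate early level, 38 with the hashtag number and 18 in the largest cluster. There were 280 with a stricter hashtag margin, 7 without Oil1, Oil2 and Oil3, and 114 in hashtags with Y-linked RNA alone. Without single hashtags there were 254 to 643. The lower counts rest in part on fewer cells or hashtags, and otherwise the cause was not tested. Of the 35 members, 12 changed sign with the immediate early level, 11 with the hashtag number, 7 without Oil1, Oil2 and Oil3, and 0 to 6 in every other setting. Cd68 changed sign with the hashtag number (0.058), Npc1 with the immediate early level (−0.0051) and the number (−0.036), and Tfe3 with both (−0.10 and −0.12), without Oil1, Oil2 and Oil3 (−0.056) and in hashtags without Y-linked RNA (−0.00021). Summed CPM moved to 9198 (cluster 0), 9251 (cluster 6) and 8738 (cluster 7) with members kept for clustering, to 8335, 8290.05 and 9093 (clusters 1, 2 and 6) at resolution 1.0, and to 11613 and 8911 (clusters 3 and 6) at 10 cells per hashtag. The summed member share was 0.920% in oil and 0.922% in TAM hashtags without mitochondrial and ribosomal protein genes in the total, which only shrinks the denominator, and 0.863% in both with all singlets; leaving out single hashtags moved it by less than the SD.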
